A study of Homo sapiens with 2 samples.

Results

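The genes that encode lysine methyltransferases, the enzymes that write methyl groups on histone lysines, and lysine demethylases, the enzymes that erase them, were examined for promoter peaks of PRMT6 and PARP1. Members were protein-coding genes with a GRCh38 RefSeq record whose symbol began with KMT, KDM, SETD followed by a letter or digit, SMYD, or NSD followed by a digit, together with EZH1, EZH2, EHMT1, EHMT2, SUV39H1, SUV39H2, DOT1L, ASH1L and PHF8. The rule used symbols and no measured value. It found 57 genes, 36 writers and 21 erasers, among 19719 protein-coding genes with a known strand. The writers include SETDB2-PHF11, a read-through record that shares its start with SETDB2, so the 57 genes have 56 separate starts.

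Methyl groups on a histone lysine act through proteins that bind them, and their meaning depends on the residue. Methylation of H3K4 marks active promoters and enhancers, and methylation of H3K36 and H3K79 marks transcribed genes. The higher methylation states of H3K9, H3K27 and H4K20 are found in silenced or compacted chromatin. Most writers carry a catalytic SET domain, DOT1L being the exception. The erasers use either a flavin cofactor (KDM1A and KDM1B) or iron and 2-oxoglutarate in a JmjC domain. PRMT6 methylates arginines, among them H3R2 next to H3K4, and PARP1 modifies proteins with chains of ADP-ribose.

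The study asked which promoters PRMT6 and PARP1 occupy in MDA-MB-231, a human cell line from a triple-negative breast cancer. Chromatin of untreated cells was profiled with 1 library per antibody, PRMT6 and PARP1, both antibodies from Cell Signaling Technology. The labels name CUT&Tag, in which an antibody directs a transposase to cut and tag nearby DNA, beside an adaptor-ligation protocol for precipitated chromatin, and no control-antibody or input library was analysed here. There was no replicate, so antibody and library cannot be told apart, and no test between the lists was made.

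The PRMT6 list held 9080 peaks and the PARP1 list 11651. Each peak carries a score, the −log10 of the p-value from the authors' peak caller, which ran from 3.09 to 55.5 for PRMT6 and from 3.02 to 85 for PARP1. Since the score depends on depth, it is compared here through its rank (1 is the best peak, and equal scores share the best rank) and its percentile, the mid-rank of its score within the same list, so that peaks of equal score count in equal parts below and above it. Many peaks had the smallest width of their list, 288 bp for 53.1% of the PRMT6 peaks and 200 bp for 30.1% of the PARP1 peaks. The read depth behind a peak is unknown. Promoters were taken as 3 kb upstream to 3 kb downstream of the record's 5′ end, any base of a peak in that window counted, and distances run from that position to the closer edge of the peak.

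Promoter peaks of at least 1 list were found at 26 of the 57 genes, and the other 31 had none. A PRMT6 promoter peak was present at 19 genes, 33.3% (exact binomial 95% interval 21.4 to 47.1), against a background of 18.3% of all protein-coding genes. PARP1 promoter peaks were present at 22 genes, 38.6% (26 to 52.4), against 22.5%. Both proteins had a promoter peak at 15 genes, 26.3% (15.5 to 39.7), against 13.4%. All 3 shares lay above their backgrounds. The lower bounds of the intervals did as well, but not in every alternative: without the members of unsettled activity on histone lysines, the bound was 17% against 18.2% for PRMT6 and 12% against 13.4% for both. For PARP1 it was 18.4% against 19.2% with the list limited to the length of the PRMT6 list, and 12.7% against 14% in the higher-scoring 50%. The intervals cover counting error only, and genes of 1 library are not replicates.

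**Figure D1:**
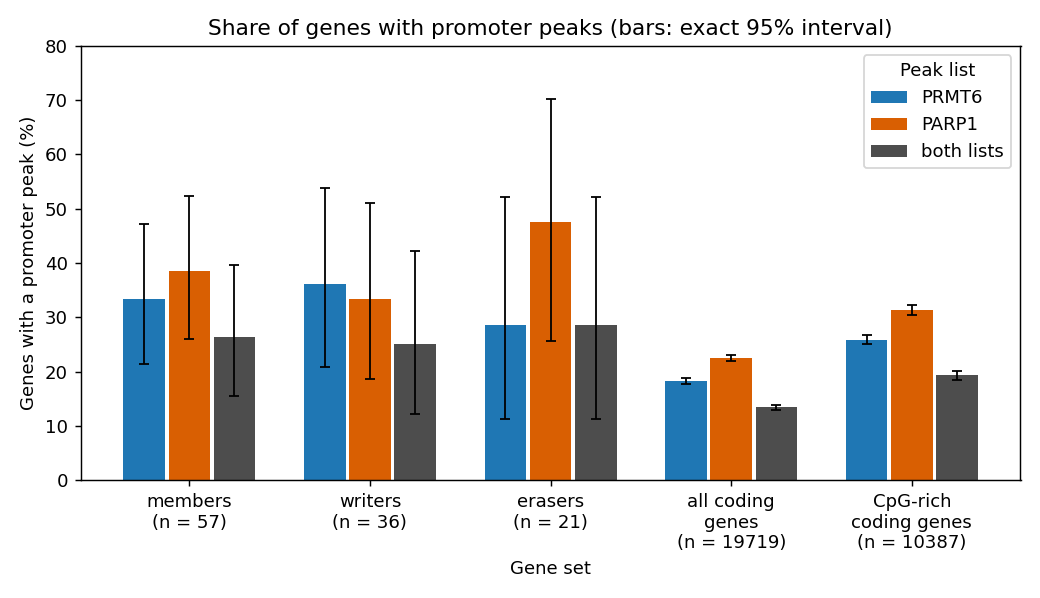
Percentage of genes with a promoter peak of PRMT6, of PARP1 and of both lists, for the 57 members, the 36 writers, the 21 erasers, all 19719 protein-coding genes and the 10387 with a CpG-rich promoter; error bars are exact binomial 95% intervals. The members lie at 33.3%, 38.6% and 26.3%, above all protein-coding genes at 18.3%, 22.5% and 13.4%, and the intervals of writers and erasers overlap.

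At each of the 15 genes with promoter peaks of both lists, a PRMT6 peak and a PARP1 peak overlapped each other. Such overlap was usual. Of all protein-coding genes, 12.9% had overlapping promoter peaks of both lists, against 13.4% with both. Among the 15 genes were enzymes for H4K20 (KMT5A and KMT5C), H3K4 (KMT2A and KMT2E) and H3K9 (SETDB2 and SUV39H2), the SET-domain genes SETD5 and SETD9, and the demethylases KDM1B, KDM2A, KDM3B, KDM4A, KDM4B and KDM8. The promoters of the 4 genes with the best mean percentile over both lists are shown, so that the sequence at or next to their peaks can be read. Each is the 250 bases before the RefSeq start, in GRCh38.p14 and on the + strand: chr19:55339626-55339875 for KMT5C, chr3:9397365-9397614 for SETD5, chr12:123383882-123384131 for KMT5A and chr19:4968863-4969112 for KDM4B. Capitals mark 3 short words, read on both strands: CCAAT, the GC box GGGCGG and the E-box CACGTG.
KMT5C: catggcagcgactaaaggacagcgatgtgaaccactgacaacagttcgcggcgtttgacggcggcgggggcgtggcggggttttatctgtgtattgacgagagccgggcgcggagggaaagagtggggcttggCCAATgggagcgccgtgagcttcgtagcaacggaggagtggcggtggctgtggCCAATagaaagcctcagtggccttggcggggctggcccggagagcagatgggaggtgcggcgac
SETD5: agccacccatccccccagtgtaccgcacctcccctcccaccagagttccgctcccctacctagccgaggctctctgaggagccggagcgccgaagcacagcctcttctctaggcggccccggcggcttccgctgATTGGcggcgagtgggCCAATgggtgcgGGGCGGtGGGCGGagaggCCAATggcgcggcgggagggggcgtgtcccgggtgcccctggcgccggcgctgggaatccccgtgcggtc
KMT5A: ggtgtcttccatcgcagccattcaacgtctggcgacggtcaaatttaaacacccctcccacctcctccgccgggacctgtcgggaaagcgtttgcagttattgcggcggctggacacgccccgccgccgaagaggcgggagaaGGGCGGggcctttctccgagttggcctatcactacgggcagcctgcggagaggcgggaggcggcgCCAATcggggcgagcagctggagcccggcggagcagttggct
KDM4B: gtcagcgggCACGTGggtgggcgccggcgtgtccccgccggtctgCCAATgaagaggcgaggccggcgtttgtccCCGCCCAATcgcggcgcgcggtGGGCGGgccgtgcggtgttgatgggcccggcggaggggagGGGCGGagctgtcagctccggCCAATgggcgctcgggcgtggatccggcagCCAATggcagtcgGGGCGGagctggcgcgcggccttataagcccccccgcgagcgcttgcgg

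In this stretch, KMT5C had 2 CCAAT words and 23 CpG, and all 250 bases lay under both its PRMT6 and its PARP1 peak. KDM4B was the densest of the set, with 4 CCAAT words, 4 GC boxes, 1 E-box and 36 CpG. One of its GC boxes overlaps a CCAAT word. Of its 250 bases, 250 lay under the PRMT6 peak and 226 under the PARP1 peak. KMT5A had 1 CCAAT word, 1 GC box and 26 CpG, with 250 bases under the PRMT6 peak and 219 under the PARP1 peak. SETD5 differed from the other 3 in that its PRMT6 peak ended before this stretch, leaving 0 bases covered, while a second, lower-scoring PARP1 peak covered 168 bases. It had 3 CCAAT words, 2 GC boxes and 25 CpG.

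Of the 3 writers of H4K20 methylation, 2 had promoter peaks of both lists, 66.7% (9.43 to 99.2). This interval contains the 13.4% of all coding genes with both. Of these 2, KMT5C had the best rank of all members in each list. KMT5C, which converts monomethylated H4K20 to its higher methylation states, had the PRMT6 peak of rank 4 (chr19:55339143-55339940, score 44.9) and the PARP1 peak of rank 33 (chr19:55339165-55339904, score 33.7). Both spanned the 5′ end, and the PARP1 peak lay wholly inside the PRMT6 peak. KMT5A, which produces the monomethylated state and is needed for chromosome compaction and S-phase control, had a PRMT6 peak of rank 281 (chr12:123383655-123384211, score 16.2) across its 5′ end. Its PARP1 peak, of rank 730 (chr12:123383398-123384100, score 14.8), stopped 32 bp short of it and was centred 184 bp from the PRMT6 peak, the widest offset among the 15 genes. KMT5B, the paralog of KMT5C, had no promoter peak, and its nearest peaks lay 58251 bp (PRMT6) and 66962 bp (PARP1) away.

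Of the 10 genes counted as H3K4 writers, 3 had a PRMT6 promoter peak, 30% (6.67 to 65.2) against 18.3% of all coding genes, and 2 a PARP1 promoter peak, 20% (2.52 to 55.6) against 22.5%. KMT2A, the MLL1 enzyme that is rearranged in acute leukemia, had a PRMT6 peak of rank 729 (chr11:118435969-118436497, score 11.7) that spanned the 5′ end. Its PARP1 peak of rank 2083 (chr11:118436011-118436421, score 9.96) lay wholly inside that interval and ended 71 bp upstream. KMT2E, a SET-domain protein of the same family whose own methyltransferase activity is unsettled, showed the reverse order, with rank 1877 for PRMT6 (chr7:105012535-105013361, score 8.07) and rank 891 for PARP1 (chr7:105012717-105013331, score 13.6). These peaks stopped 844 bp and 874 bp short of the start, farther than at any other gene of the 15. The 5′ end of the long noncoding RNA KMT2E-AS1 lies 64 bp upstream of that of KMT2E, so the peaks can be assigned to neither gene alone. KMT2B, a close relative of KMT2A, had a PRMT6 peak only, of rank 3000 (score 6.57), which ended 821 bp upstream.

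Writers of H3K9 methylation had PRMT6 promoter peaks at 3 of 6 genes, 50% (11.8 to 88.2), and PARP1 promoter peaks at 2 of 6, 33.3% (4.33 to 77.7). The shares over all coding genes, 18.3% and 22.5%, lay inside these intervals. SETDB2 had a PRMT6 peak of rank 1066 (chr13:49443938-49444317, score 10.2) and a PARP1 peak of rank 3853 (chr13:49444053-49444473, score 7.76), both across the 5′ end it shares with SETDB2-PHF11. The 5′ end of CAB39L, a gene for a kinase scaffold, lies 210 bp upstream. SUV39H2, which trimethylates H3K9 in heterochromatin, ranked 5718 for PRMT6 (chr10:14878353-14878641, score 4.79) and 4889 for PARP1 (chr10:14878328-14878568, score 6.93). These were the lowest PRMT6 percentile of the 15 genes (32.1) and a PARP1 percentile of 57.7, below their median of 82.1. The peaks ended 225 bp and 298 bp upstream, next to the 5′ end of SUV39H2-DT at 207 bp upstream. SETDB1, which silences endogenous retroviruses together with TRIM28, had a PRMT6 peak across its 5′ end at rank 1786 (score 8.15) and no PARP1 promoter peak. The 5′ end of the noncoding LOC107985204 lies 78 bp downstream of that of SETDB1. Neither list had a promoter peak at SUV39H1 or at EHMT1 and EHMT2, the enzymes of H3K9 dimethylation in euchromatin.

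SETD5 and SETD9 belong to the SET-domain genes whose substrate is other or unsettled. SETD5, a gene mutated in intellectual disability, had a PRMT6 peak of rank 141 (chr3:9396296-9397332, score 19.3), whose 3′ edge lay 283 bp upstream of the 5′ end. The PARP1 peak of rank 309 (chr3:9396403-9397182, score 19.2) lay wholly inside it. A second PARP1 peak of rank 5304 (chr3:9397447-9397664, score 6.73) spanned the 5′ end and had no PRMT6 counterpart. The noncoding THUMPD3-AS1 starts 121 bp upstream of SETD5. At SETD9, a gene of little-known function, both peaks lay downstream of the 5′ end, by 461 bp for PRMT6 (chr5:56909721-56910208, rank 4181, score 5.55) and by 374 bp for PARP1 (chr5:56909634-56910241, rank 5956, score 6.39). SMYD4, a member of the SMYD family, had a PRMT6 peak only, of rank 2674 (score 6.82), across a 5′ end that lies 103 bp from that of the replication factor gene RPA1.

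**Figure D2:**
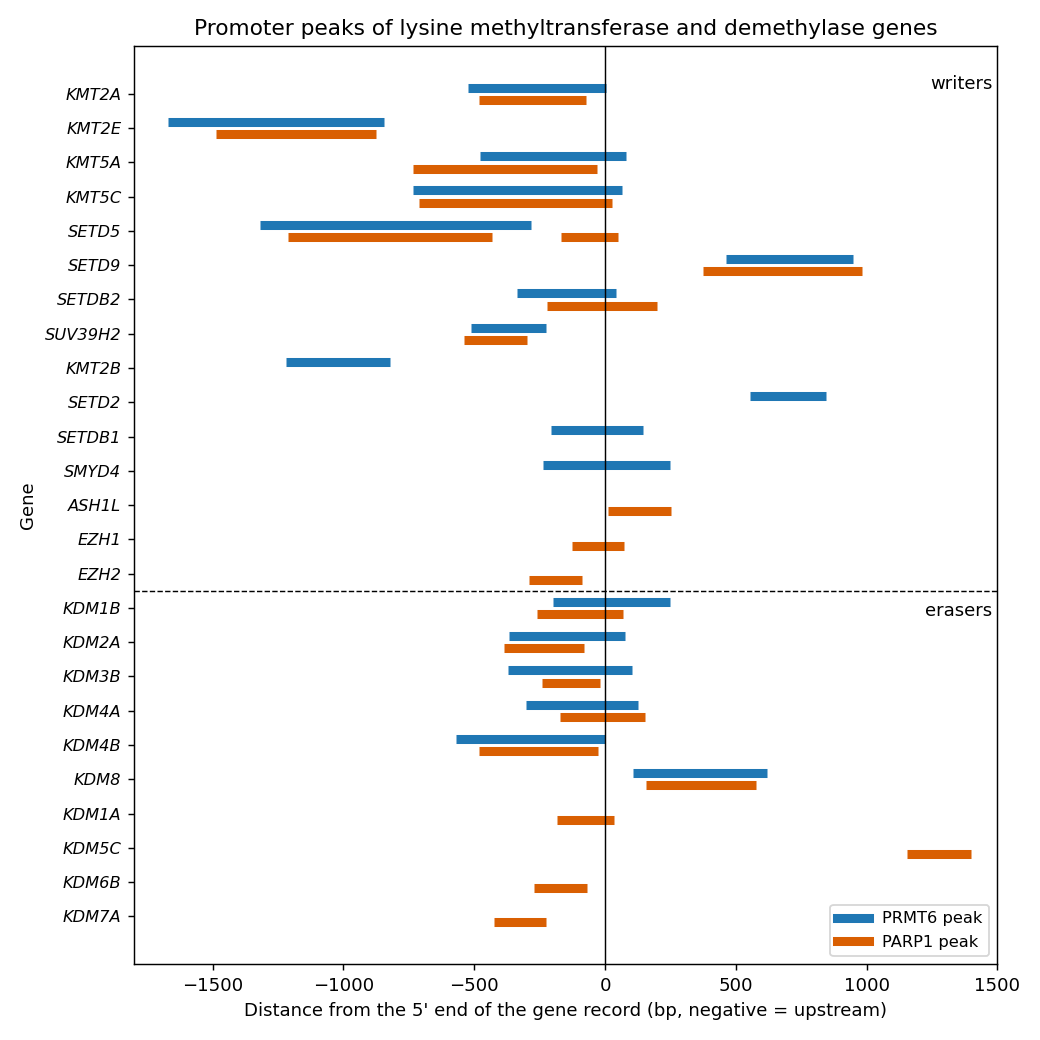
Promoter peaks of PRMT6 (blue) and PARP1 (orange) at the 25 separate starts that have any, drawn as bars by their distance from the 5′ end of the gene record in bp, with upstream to the left. At the 14 starts with peaks of both lists the bars overlap, most of them upstream of or across the 5′ end, while SETD9 and KDM8 have theirs downstream.

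The KDM4 genes, grouped here as erasers of H3K9 and H3K36, had both peaks at KDM4A and KDM4B. No promoter peak was present at KDM4C, KDM4D, KDM4E and KDM4F. The share with both was 2 of 6, 33.3% (4.33 to 77.7), an interval that contains the 13.4% of all coding genes. KDM4B, a target and cofactor of the estrogen receptor in other breast cancer lines, had the best PRMT6 rank of any eraser, 72 (chr19:4968542-4969112, score 25.0), in a peak that stopped 1 bp short of its start. Its PARP1 peak had rank 1423 (chr19:4968630-4969088, score 11.5) and lay wholly within the PRMT6 peak. KDM4A had a PRMT6 peak of rank 568 (chr1:43649847-43650274, score 12.8) and a PARP1 peak of rank 1974 (chr1:43649976-43650303, score 10.3), both across the 5′ end. For both genes PRMT6 had the higher percentile, 99.2 against 87.8 at KDM4B and 93.8 against 83 at KDM4A.

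KDM8, a JmjC enzyme known for H3K36 whose activity is debated, was the eraser with the best PARP1 rank, 455 (chr16:27203681-27204104, score 17.0), and the only one of the 6 erasers with a higher percentile for PARP1 (96.1) than for PRMT6 (82.8; chr16:27203634-27204144, rank 1543, score 8.71). Both peaks lay downstream of the 5′ end, by 108 bp for PRMT6 and 155 bp for PARP1, with centres 3 bp apart. KDM2A, an H3K36 demethylase that reads unmethylated CpG through a CXXC zinc finger, had a PRMT6 peak of rank 1396 across its 5′ end (chr11:67118896-67119339, score 9.03). The PARP1 peak of KDM2A, of rank 4743 (chr11:67118876-67119181, score 7.06), ended 82 bp upstream. KDM3B, which removes mono- and dimethyl groups from H3K9, had peaks of rank 2907 for PRMT6 (chr5:138352314-138352790, score 6.61) and 7686 for PARP1 (chr5:138352443-138352664, score 5.51), with centres 1 bp apart. This gene had the largest gap between its percentiles, 67.5 for PRMT6 and 33.3 for PARP1.

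The flavin-dependent erasers act on H3K4 and, in part, H3K9. KDM1B, which prepares maternal imprints in the oocyte, had peaks of both lists across its 5′ end, of rank 1333 for PRMT6 (chr6:18155225-18155671, score 9.25) and 3853 for PARP1 (chr6:18155162-18155492, score 7.76). The 5′ end of TPMT, a thiopurine-metabolizing enzyme gene, lies 253 bp upstream. KDM1A, the LSD1 enzyme of the CoREST complex, had a PARP1 peak only, of rank 5850 (score 6.45), across its 5′ end.

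**Figure D3:**
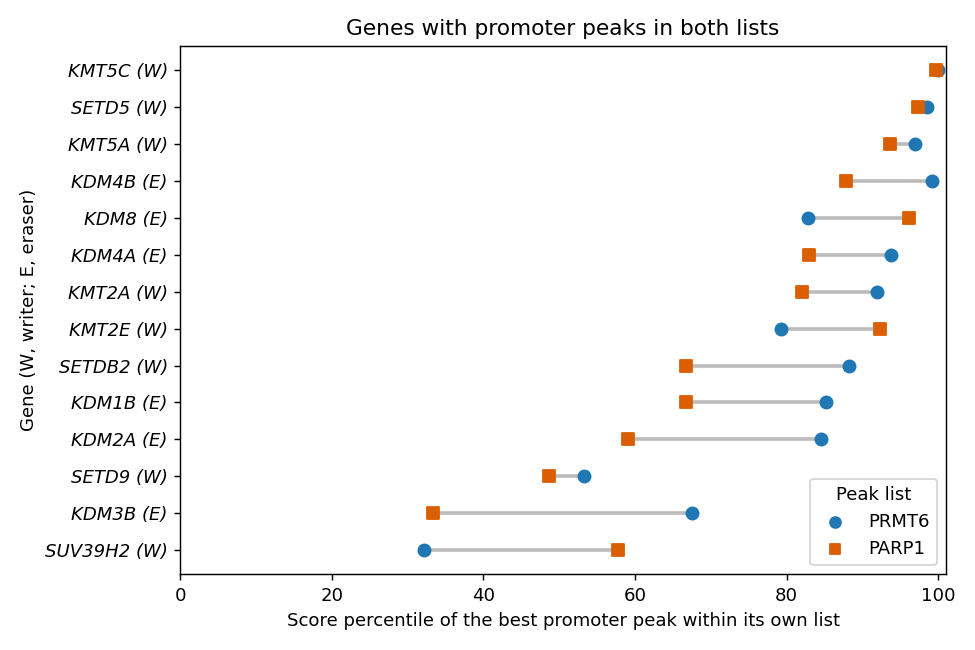
Score percentile, within its own list, of the best PRMT6 (circles) and PARP1 (squares) promoter peak at the 14 separate starts with peaks of both lists, ordered by the mean of both; W marks writers and E erasers. KMT5C is at 100 and 99.7, PRMT6 lies to the right of PARP1 at most genes, and KDM8, KMT2E and SUV39H2 show the opposite order.

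Over the 15 genes, the overlap between the PRMT6 and PARP1 peaks ran from 216 bp to 780 bp, with a median of 411 bp. Their centres lay 1 bp to 184 bp apart, with a median of 49 bp. The centre was upstream of the 5′ end at 12 of 15 genes for PRMT6 and at 13 of 15 for PARP1. The PARP1 peak lay wholly within the PRMT6 peak at 7 genes. PRMT6 peaks were wider at 11 of 15, in lists whose smallest widths differ in the same direction. Over all protein-coding genes with both, the median width was likewise larger for PRMT6, 421 bp against 345 bp for PARP1. Overlap lengths, centres and nesting were not counted over all genes, so nothing particular to the 15 genes is read from them. The PRMT6 percentile was the higher one at 12 of 15 genes, by a median of 9.8 points with a range of −25.6 to 34.2, whereas among all 2637 protein-coding genes with both it was higher at 1500, by a median of 1.98. For erasers the difference had a median of 14.9 and PRMT6 was higher at 5 of 6, and for writers the median was 3.2 and PRMT6 was higher at 7 of 9. With 1 library per antibody these differences have no error. The 15 genes have 14 separate starts, so the peaks that SETDB2 and SETDB2-PHF11 share count for 2 genes in these numbers, both among the writers.

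The best PRMT6 promoter peaks of the 19 genes had a median percentile of 84.5, against 71.8 over the 3600 protein-coding genes with one. Of these peaks, 6 (31.6%) had a percentile of at least 90, against 19.8%, and 2 (10.5%) had the smallest width, against 27.6%. The best PARP1 promoter peaks of the 22 genes had a median of 62.9, close to 62.1 over the 4430 protein-coding genes with one. These PARP1 peaks fell into unlike groups. At the 15 genes that also had PRMT6 the median was 82.1, and at the 7 genes without PRMT6 it was 18.1, against 74.6 and 42.2 over all protein-coding genes of the same kinds.

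Both EZH1 and EZH2, the alternative catalytic subunits of the Polycomb repressive complex PRC2 that methylates H3K27, had a PARP1 promoter peak and no PRMT6 promoter peak. These peaks were weak, and the interval for 2 of 2 genes, 15.8 to 100, contains the 22.5% of all coding genes with PARP1. The EZH1 peak had rank 10721 (score 4.20) across the 5′ end, and the EZH2 peak had rank 11577 (score 3.10), close to the end of the list, 89 bp upstream. The H3K27 demethylase KDM6B had a PARP1 peak of rank 9084 (score 5.04) 70 bp upstream, and at KDM6A the nearest peaks were 443586 bp (PRMT6) and 606798 bp (PARP1) away. KDM7A, which removes methyl groups from H3K9 and H3K27, had a PARP1 peak of rank 9451 (score 4.79) 225 bp upstream. That peak spanned the 5′ end of the noncoding KDM7A-DT, 278 bp upstream of that of KDM7A. All 4 of these PARP1 peaks had the smallest width of the list, 200 bp.

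The remaining genes with PARP1 alone were KDM5C and ASH1L, beside KDM1A above. KDM5C, the X-linked H3K4 demethylase of the KDM5 family, had a peak of rank 10721 (score 4.20) 1156 bp downstream of the 5′ end, and KDM5A, KDM5B and KDM5D had no promoter peak. ASH1L, an H3K36 writer, had a peak of rank 7034 (score 5.78) 10 bp downstream, with the 5′ end of MSTO1 44 bp upstream. Of the other H3K36 writers, SETD2, the enzyme of H3K36 trimethylation in transcribed genes, had a PRMT6 peak of the smallest width at rank 6633 (score 4.68), 555 bp downstream. The 5′ end of the noncoding KIF9-AS1 lies 470 bp downstream of that of SETD2, and a SETD2 start is listed 727 bp from the record's 5′ end. No promoter peak was found at NSD1, NSD2 or NSD3, which dimethylate H3K36.

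Writers and erasers were compared by their shares. PRMT6 promoter peaks were present at 13 of 36 writers, 36.1% (20.8 to 53.8), and at 6 of 21 erasers, 28.6% (11.3 to 52.2). For PARP1 the order was the opposite, with 12 of 36 writers, 33.3% (18.6 to 51), and 10 of 21 erasers, 47.6% (25.7 to 70.2). Peaks of both lists were present at 9 writers, 25% (12.1 to 42.2), and 6 erasers, 28.6% (11.3 to 52.2). The intervals overlapped widely in all 3 comparisons, and no difference between writers and erasers was detectable with these numbers of genes. The shares over all protein-coding genes were 18.3% for PRMT6, 22.5% for PARP1 and 13.4% for both. Only the interval of the writers for PRMT6 and that of the erasers for PARP1 lay above them, and neither did among the CpG-rich promoters described below. The other intervals, among them those of writers and of erasers for both lists, contained these shares. Each of the 6 erasers with PRMT6 also had PARP1, which is 60% of the 10 erasers with PARP1, whereas 4 of 13 writers had PRMT6 without PARP1. Over all members, the genes with both made up 78.9% of those with PRMT6 and 68.2% of those with PARP1, against 73.2% and 59.5% over all protein-coding genes.

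**Figure D4:**
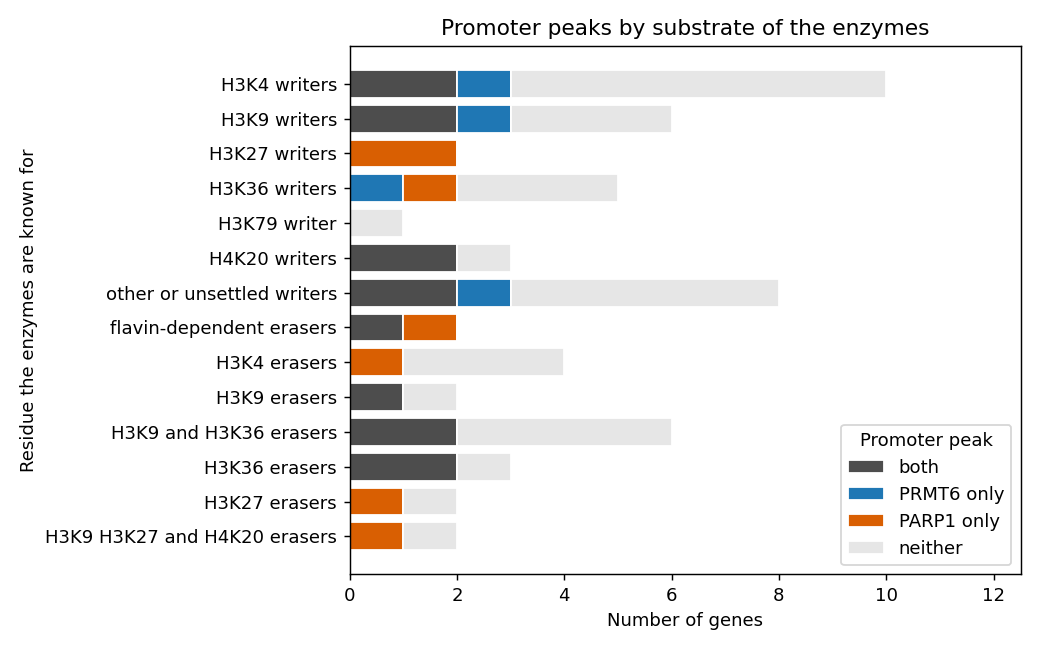
Number of genes with promoter peaks of both lists, of PRMT6 only, of PARP1 only and of neither, for each group of enzymes by the residue they are known for; SETDB2-PHF11 is left out. Both H3K27 writers have PARP1 only, 2 of 3 H4K20 writers have both, and 7 of 10 H3K4 writers and 4 of 6 erasers of H3K9 and H3K36 have neither. Of all protein-coding genes, 13.4% have both, 4.88% PRMT6 only, 9.09% PARP1 only and 72.7% neither. The groups are small, and nothing particular to any of them is read from its count.

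The 31 genes without a promoter peak comprised 20 writers and 11 erasers. A peak lay within 10 kb of the 5′ end at 10 of them and within 50 kb at 18. Peaks just outside the promoter were strong at some genes. At SETD1B, a catalytic subunit of the COMPASS complex for H3K4, a PRMT6 peak of rank 202 (score 17.9) and a PARP1 peak of rank 113 (score 24.9) lay 3342 bp and 3396 bp upstream, inside the record of RHOF. At DOT1L, the only H3K79 writer, a PRMT6 peak of rank 206 (score 17.8) and a PARP1 peak of rank 306 (score 19.2) lay 4733 bp and 4952 bp downstream, inside the gene. These positions fall beyond the 3 kb limit and are not part of the counts.

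Some of the near peaks lay at starts that the gene record does not carry as its 5′ end. RefSeq's promoter table lists several starts for 18 of the 53 members it holds. At KDM3A, an H3K9 demethylase induced by hypoxia, both a PRMT6 peak of rank 694 (chr2:86440870-86441451, score 11.9) and a PARP1 peak of rank 834 (chr2:86441169-86441471, score 13.9) spanned a start listed 4327 bp inside the record. At SETD3, which methylates a histidine of actin, a PRMT6 peak of rank 466 (score 13.7) and a PARP1 peak of rank 331 (score 18.6) ended 74 bp and 55 bp upstream of a start 5599 bp inside the record. The same peaks spanned the 5′ end of CCNK, a cyclin gene that runs the other way. At KDM4C, a PRMT6 peak of rank 5718 and the smallest width spanned a start 37110 bp inside the record. With every listed start used, PRMT6 promoter peaks were present at 23 genes, 40.4% (all genes 19.6%), PARP1 at 25, 43.9% (24.1%), and both at 17, 29.8% (14.4%).

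Other near peaks belonged to positions closer to another gene. The PRMT6 peak 4355 bp upstream of EHMT2 spanned the 5′ end of ZBTB12, and the peaks of EHMT1, 6326 bp (PRMT6, rank 444) and 6519 bp (PARP1, rank 8051) upstream, lay inside ARRDC1. SETD1A, a COMPASS subunit whose expression the study followed, had its nearest PRMT6 peak 7421 bp upstream, 940 bp from the 5′ end of ORAI3. At KMT2D the nearest PARP1 peak, 9208 bp upstream, lay 23 bp from the 5′ end of RHEBL1. SMYD3 and the muscle gene SMYD1 had PARP1 peaks inside the gene, 3574 bp and 7081 bp downstream, of the smallest width and of ranks 7034 and 10689.

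The nearest peak lay between 10 kb and 50 kb away at 8 genes. KMT2C had peaks of both lists, 27738 bp (PRMT6, rank 1156) and 27812 bp (PARP1, rank 542) upstream. SMYD5 had peaks 18937 bp (PRMT6, rank 556) and 18994 bp (PARP1, rank 921) downstream, and KDM2B had a PRMT6 peak 44150 bp upstream and a PARP1 peak 44885 bp downstream. A PRMT6 peak lay 12025 bp upstream of KDM5A and 37097 bp downstream of the record 5′ end of KDM4C. A PARP1 peak lay 15018 bp upstream of NSD2, 15224 bp upstream of NSD3 and 29129 bp downstream of KDM4F. In both lists the nearest peak was beyond 50 kb at KDM4D, KDM4E, KDM5B, KDM5D, KDM6A, KMT5B, NSD1, PHF8, SETD4, SETD6, SETD7, SMYD2 and SUV39H1.

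Inside the gene records but outside promoters, the members had 20 PRMT6 peaks in 15 genes (26.3% of genes, against 13.2% of all protein-coding genes) and 18 PARP1 peaks in 11 genes (19.3%, against 14.6%). Per length of record this was 0.382 PRMT6 peaks per 100 kb against 0.279 over all genes, and 0.344 PARP1 peaks per 100 kb against 0.343. The PRMT6 count includes 1 peak that SETDB2 and SETDB2-PHF11 share. Of the 19 separate PRMT6 peaks, 7 overlapped a PARP1 peak and 4 lay within 100 bp of a listed start. The strongest pairs were those of DOT1L, KDM3A and SETD3 above and one at an inner start of KDM2A. The latter pair, a PRMT6 peak of rank 765 (chr11:67239745-67240173, score 11.5) and a PARP1 peak of rank 1138 (chr11:67239871-67240140, score 12.45), both spanned a listed start and began 120482 bp and 120608 bp downstream of the KDM2A 5′ end.

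DOT1L carried a second shared pair, of rank 976 for PRMT6 (chr19:2221309-2221707) and 3190 for PARP1 (chr19:2221348-2221623). NSD1, without a promoter peak, had a shared pair 62488 bp inside the gene, of rank 4181 for PRMT6 and 3516 for PARP1. SMYD3, linked to H3K4 and to cytoplasmic substrates, had 7 peaks within its record, 3 of PRMT6 and 4 of PARP1, and no PRMT6 peak among them overlapped a PARP1 peak.

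The promoters of these genes were compared by sequence, which the rule did not use. RefSeq's table holds 300 bases, 250 before and 50 after the start, for 53 of the 57 genes, and SETDB2 and SETDB2-PHF11 share one entry, which leaves 52. DOT1L, SETD1B, NSD3 and KDM4E had no entry. At ASH1L, KDM2B, KDM3A, KDM4C, PHF8, SETD2, SETD3 and SETD6 the listed start was not the 5′ end of the record. The ratio of observed to expected CpG had a median of 0.935 over these 52 promoters, against 0.761 over 15842 protein-coding genes. A ratio of at least 0.6, called CpG-rich here, was reached by 47 of the 52 (90.4%), against 65.6%. Peaks were counted at the record's 5′ end. All 25 separate promoters with a peak there were CpG-rich, and so were 22 of 27 (81.5%) without one. Among those 27, the sequences of KDM3A, SETD3 and KDM4C come from listed starts that carry peaks of their own. The 5 below the limit were SMYD1, SUV39H1, NSD1, KDM4F and PHF8.

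**Figure D5:**
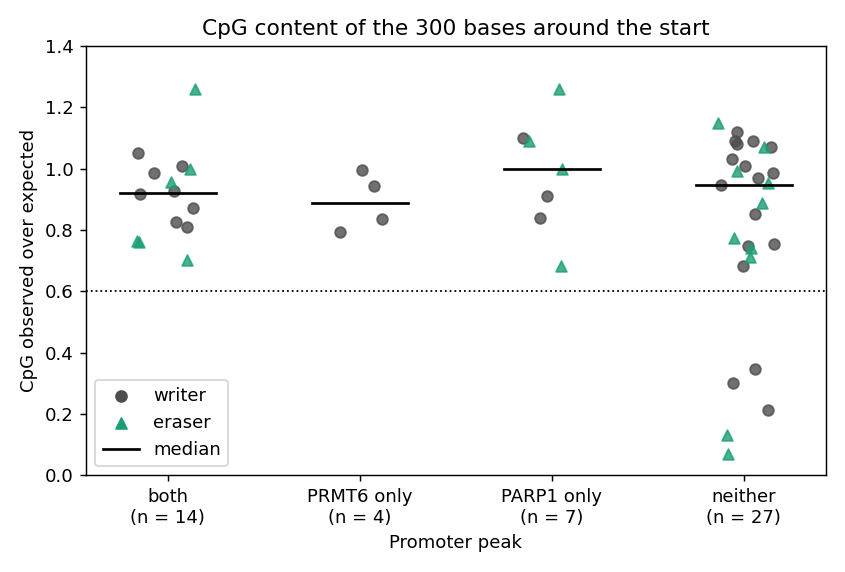
Ratio of observed to expected CpG in the 300 bases around the RefSeq start, for 52 promoters grouped by their promoter peaks; circles are writers, triangles erasers, horizontal bars medians and the dotted line is the CpG-rich limit of 0.6. The medians lie close together, at 0.921 for both lists and 0.948 for neither, and the 5 promoters below the limit are all without a peak. Peaks were counted at the record's 5′ end, so KDM3A, SETD3 and KDM4C stand under neither although peaks lie at the starts drawn.

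CpG content moved with the peaks over all genes, so the shares were also taken among CpG-rich promoters. Of 10387 coding genes with such a promoter, 25.9% carried PRMT6, 31.4% PARP1 and 19.3% both, against 6.97%, 9.31% and 4.62% of the other 5455. The 48 members with a CpG-rich promoter, SETDB2-PHF11 counted, had shares of 39.6% (25.8 to 54.7), 45.8% (31.4 to 60.8) and 31.2% (18.7 to 46.3). These remained the higher values, but the backgrounds now lay at or inside the lower bounds of the intervals. Of writers with a CpG-rich promoter, 43.3% (25.5 to 62.6) had PRMT6, and of erasers with one, 55.6% (30.8 to 78.5) had PARP1. These intervals contain the backgrounds of 25.9% and 31.4%. The part of CpG content in the shares of the members was not tested further. A 5′ end of another coding gene within 1 kb also went with peaks over all genes, at 34.2% for PRMT6, 42.4% for PARP1 and 27.2% for both with such a neighbor. The 10 members with one had 40%, 40% and 30%, near those values and lower for PARP1. The 47 members without such a neighbor had 31.9% for PRMT6, 38.3% for PARP1 and 25.5% for both. Over all genes without such a neighbor the shares were 15.4%, 18.9% and 10.9%. Counting noncoding genes too, another 5′ end lay within 1 kb at 6 of the 14 starts with both lists and at 10 of 31 genes with neither. Over all protein-coding genes this held for 1230 of 2637 with both and 2959 of 14326 with neither. Of all genes with such a 5′ end 23.4% had both, against 9.73% of those without. Among members these shares were 31.8% and 22.9%, SETDB2-PHF11 counted.

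Short words were counted in the same 300 bases, on both strands. Peaks are again those at the record's 5′ end, so the group with none includes KDM3A, SETD3 and KDM4C. KDM3A and SETD3 have the CCAAT word and the GC box, and KDM4C has CCGGAAG and the E-box. The CCAAT word was in 7 of 14 promoters with both peaks (50%), in 2 of 11 with a peak of 1 list (18.2%) and in 8 of 27 with none (29.6%). Over all promoters it was in 36.4%, and in 49.7% of those with both peaks. The GC box was in 10 of 14 (71.4%) with both, 9 of 11 (81.8%) with 1 list and 19 of 27 (70.4%) with none, against 58.3% of all promoters. Over all genes with both peaks it was in 75.9%, above the 71.4% of the members. CCGGAAG, a word bound by ETS factors, was in 0 of 14, 1 of 11 and 7 of 27 (25.9%), while over all genes it was more frequent with both peaks (19%) than in all promoters (14.2%). The E-box CACGTG, the word of the clock factors CLOCK and BMAL1 and of MYC, was in 1 of 14 with both, 2 of 11 with 1 list and 6 of 27 with none, against 8.82% of all promoters. The 1 with both peaks was KDM4B, and over all genes with both peaks the E-box was in 10.8%. The YY1 word AAGATGGCG (2.69% of all promoters), the cyclic AMP response element TGACGTCA (2.56%) and the NRF1 word (1.77%) were in 4, 1 and 1 of the 52. These counts are small, and a word is not a binding site.

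Genes that encode partners and counterparts of these enzymes were counted from lists of 75 genes in all. Of these, 25 (33.3%) had a PRMT6 promoter peak, 35 (46.7%) a PARP1 promoter peak and 23 (30.7%) both, with intervals of 22.9 to 45.2, 35.1 to 58.6 and 20.5 to 42.4. The shares over all protein-coding genes were 18.3%, 22.5% and 13.4%, and over those with a CpG-rich promoter 25.9%, 31.4% and 19.3%. The single lists are small, and nothing particular to any of them is read from its count. Partners in COMPASS and MLL complexes had both peaks at 3 of 13 genes (ASH2L, MEN1 and PAGR1; 23.1%, interval 5.04 to 53.8), and PARP1 alone at CXXC1, PAXIP1 and RBBP5. MEN1, the menin scaffold of KMT2A and KMT2B, had been chosen for testing in the study. PRC2 partners had both at 3 of 10 (JARID2, PHF1 and RBBP4; 30%, 6.67 to 65.2) and PARP1 alone at EED and RBBP7, beside PARP1 alone at EZH1 and EZH2. Partners of KDM1A had both at 3 of 8 (HDAC1, HMG20B and RCOR1; 37.5%, 8.52 to 75.5). All 3 intervals contain the 13.4% of all coding genes with both.

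Readers of H3K9 methylation and their partners had both peaks at 3 of 6 genes, the heterochromatin protein genes CBX3 and CBX5 and the corepressor gene TRIM28 (50%, interval 11.8 to 88.2), and PARP1 alone at CBX1. Histone acetyltransferases had both at 3 of 10 (EP300, KAT5 and KAT6B; 30%, 6.67 to 65.2). Deacetylases had both at 8 of 18 (HDAC1, HDAC4, HDAC5, HDAC6, HDAC7, SIRT2, SIRT4 and SIRT5; 44.4%, 21.5 to 69.2). Of these intervals, those of readers and acetyltransferases contain 13.4%, the share of all coding genes with both, and that of deacetylases lies above it and above the 19.3% of CpG-rich promoters. The deacetylases were not limited to CpG-rich promoters, and the lists were chosen with earlier results known. Nothing particular to the deacetylases is therefore read from this interval. Among SET- or PR-domain methyltransferases outside the naming rule, 1 of 5 had both (MECOM; 20%, 0.505 to 71.6), and among other JmjC proteins 1 of 8 (JARID2; 0.316 to 52.7), with PRMT6 alone at RIOX1. The best peaks of all these lists were at KAT6B, with ranks 14 (PRMT6) and 56 (PARP1), followed by TRIM28 with ranks 95 and 102 and SIRT2 with ranks 238 and 510. Among writers and erasers, KMT5C alone ranked above KAT6B in both lists.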

How the data were processed

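The deposited lists give a chromosome, start, end and score per peak, called by the authors in each library separately. The deposited score is a −log10 p-value per peak, written by the caller and not corrected for depth. The labels' processing notes name CASAVA 1.4, Bowtie 0.12.8, MACS, MACS2 and hg19. Against hg19 the positions fitted poorly: 4.04% (PRMT6) and 3.94% (PARP1) of peaks lay within 1 kb of a coding 5′ end with GRCh37 genes, against 30.1% and 29.5% with GRCh38, which was used. Read with GRCh37 genes, 7 and 6 of 56 members had a promoter peak, against 19 and 22. Thresholds, duplicate treatment and controls are not given in the sources used here. The depth of the libraries is unknown.

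Genes came from RefSeq (GRCh38.p14). Strand came from RefSeq's promoter table for 15843 genes and from the GENCODE gene of the same name for 3876, and 318 of 20037 were left out. A peak with at least 1 bp inside the window from 3 kb upstream to 3 kb downstream counted as a promoter peak. Percentiles are mid-ranks within a list. Python 3.11.15, numpy 2.4.6, pandas 2.3.3 and scipy 1.17.1 (exact binomial intervals) were used, and promoter assignment was tested on simulated data. Samples were grouped by the antibody in the labels. Named in full were the members with both peaks. Members, groups and partner lists were chosen with earlier results of these data known, so no test was made on them. Alternatives covered the window, the peaks, the overlap rule and the genes. Expression was not analysed here.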

Additional observations from a re-analysis of the deposited data

How the results depend on the processing

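Of 63 alternative values over the shares and median percentiles, 62 moved by less than their interval or spread, and all 51 shares with a background stayed above it. The exception was the PARP1 share, which was 22.8% (13 of 57 genes, against 14% of all genes) when each list was limited to its higher-scoring 50%, against 38.6%. The 7 PARP1-only genes, KDM3B and SETD9, all with percentiles below 50, were then without a PARP1 promoter peak. Over all alternatives the PRMT6 share ran from 29.2% to 40.4%, the PARP1 share from 22.8% to 43.9% and the share with both from 21.1% to 29.8%. The share with both ran from 19.4% to 27.8% for writers and from 23.8% to 33.3% for erasers. For the median percentiles the spread was a standard deviation, 21.3 points for PRMT6 and 32.4 for PARP1, too wide to show stability. The PARP1 median went from 62.9 to 83 in the higher-scoring 50%, which leaves out every peak with a percentile below 50. The alternatives reuse the same genes and peaks and are not independent. The use of every listed start and the omission of SETDB2-PHF11 were chosen after seeing the data. No paired analysis was possible because there is only 1 library for either antibody. Neither leaving out a replicate nor an error between libraries could be had. The intervals cover counting error over genes, the depth is unknown, and a gene without a peak may have signal below the authors' threshold.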
